A study of Mus musculus with 2 samples.

Results

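The genes described here are the 37 genes encoded by the mouse mitochondrial genome, 37 of the 43346 annotated genes in the deposited tables. They were chosen by name and place alone: every gene whose symbol begins with mt- and which lies on chrM in GENCODE M21 of GRCm38 (the assembly also called mm10). The set holds 13 protein-coding genes, 2 ribosomal RNA (rRNA) genes and 22 transfer RNA (tRNA) genes. The cells were G1E, an immortalized mouse line that the labels call a Gata1- erythroid progenitor, male, postnatal and aged 0 day. GATA1 is a transcription factor needed for red cell maturation, and G1E cells lack its function and grow as immature erythroid cells. Poly(A)-selected RNA was sequenced from 1 end in 2 libraries, biological replicates 1 and 2 of 1 biosample, with no treatment and no second condition given. All values therefore describe 1 cell line, and the spread between the libraries may be technical, since the labels name no separate cultures.

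The mitochondrial genome is a small circle that is transcribed from both strands into long precursors. The tRNAs lie between most of the other genes, and cutting them out frees the mRNAs and rRNAs, many of which then receive a short poly(A) tail. The 13 mRNAs encode subunits of respiratory chain complexes I, III and IV and of ATP synthase (complex V). The remaining subunits of these complexes come from the nucleus. The rRNAs and tRNAs serve the ribosomes inside the organelle. Erythroid cells need mitochondria for haem synthesis and lose them at the end of their maturation.

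The libraries held 31633477 and 56978173 expected counts on annotated genes, where an expected count is an estimated number of reads. They also differed in read length, 36 nt in replicate 1 and 55 nt in replicate 2, as read from the lengths in the tables. Levels are in TPM, counts per effective length scaled to a fixed total in each library, and are given for both libraries or as mean ± SD (n = 2). Erythroid progenitor markers (Gata2, Kit, Tal1, Klf1, Gfi1b, Epor, Tfrc and Zfpm1) reached 1 TPM in each library for 8 of 8 genes, from 48.4 to 764 TPM in replicate 1 and from 96.7 to 363 TPM in replicate 2. None of 12 markers of T and B cells, neutrophils, fibroblasts and hepatocytes did, with highest values of 1.68 and 0.25 TPM. The platelet markers Pf4 and Gp1ba were present, Pf4 at 11.3 and 13.6 TPM and Gp1ba at 14.2 and 3.75 TPM. In RNA from many cells together, fewer cells with a transcript and less of it in each cell cannot be told apart.

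Several of these genes have an almost exact copy in the nuclear genome, and the sequences show how little separates them. A run of 7 annotated pseudogenes on chromosome 1, chr1:24611535-24616197 of GRCm38, carries part or all of mt-Co1, mt-Co2, mt-Atp6, mt-Co3, mt-Nd3, mt-Nd4l and mt-Nd4, each on the same transcript strand as the gene. Over the aligned bases the copies Gm28661 (of mt-Co2, 681 bases), Gm10925 (of mt-Atp6, 678 bases), Gm28437 (of mt-Co3, 783 bases), Gm10222 (of mt-Nd4l, 294 bases) and Gm28439 (of mt-Nd4, 876 bases) had 0 mismatches. Gm28438 differed from mt-Nd3 at 1 of 345 bases. That difference is T3C, with positions counted from 1 at the first base of mt-Nd3, and it is shown here in capitals at the start of the gene (chrM:9459-9481, plus strand) and of its copy (chr1:24613097-24613119, minus strand), because it is the only base in the aligned stretch by which a read could be placed.
mt-Nd3: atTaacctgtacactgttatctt
Gm28438: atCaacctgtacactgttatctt

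Of the 36-nt stretches in a gene, only 3 of 646 in mt-Atp6, 3 of 649 in mt-Co2, 1 of 749 in mt-Co3, 3 of 262 in mt-Nd4l and 6 of 313 in mt-Nd3 were absent from its copy. At 55 nt the absent stretches were as many. mt-Nd4 had 502 of 1343 that its copy lacks. Gm29216 held 29.4% of the 36-nt stretches of mt-Co1. Over the 483 aligned bases it differed only by A1066T, and 1062 bases of mt-Co1 lay outside the alignment. On chromosome 2, Gm13340 and Gm13341 held 39.2% of those of mt-Co1 and 43.1% of those of mt-Co2. These 9 genes, each holding at least 20% of a gene's 36-nt stretches, are called nuclear copies in what follows. Genes on chromosome 18 were left out, so a copy there would not be among the 9. Gm29216 is the copy nearest to that threshold. Among the genes kept, the nearest outside it is Gm13339 on chromosome 2, with 11.1% of the stretches of mt-Nd2. Gm13339 was named after its values were seen.

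The deposited tables placed most reads of 4 mitochondrial genes on the copies. Gm10925 was given 164181 and 346302 counts, against 41391 and 35171 for mt-Atp6. Gm28661 had 27484 and 129832 counts, against 2240 and 3519 for mt-Co2. Gm28437 received 11251 and 117221 counts, against 2577 and 3427 for mt-Co3. All 3 copies thus exceeded the mitochondrial gene in both libraries. For mt-Nd3, replicate 1 had 0 counts and its copy 2103, while replicate 2 had 6560 and 11048. Gm29216 took 2013 and 33441 counts beside 82323 and 161268 for mt-Co1. Of the joint counts of gene and copies, the copies held 79.9% and 90.8% for mt-Atp6 and 92.5% and 97.4% for mt-Co2. For mt-Co3 they held 81.4% and 97.2%, and for mt-Nd3 100% and 62.7%. The other genes kept most of their reads, with a copy share of 2.41% and 17.2% for mt-Co1, 2.39% and 1.04% for mt-Nd4l and at most 0.05% for mt-Nd4. All 9 copies together held 207298 and 638357 counts, 26.0% and 33.3% of the sum over mitochondrial genes and copies. Whether any of these reads came from the nuclear copies was not tested, and each affected gene is given below alone and together with its copies.

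**Figure D1:**
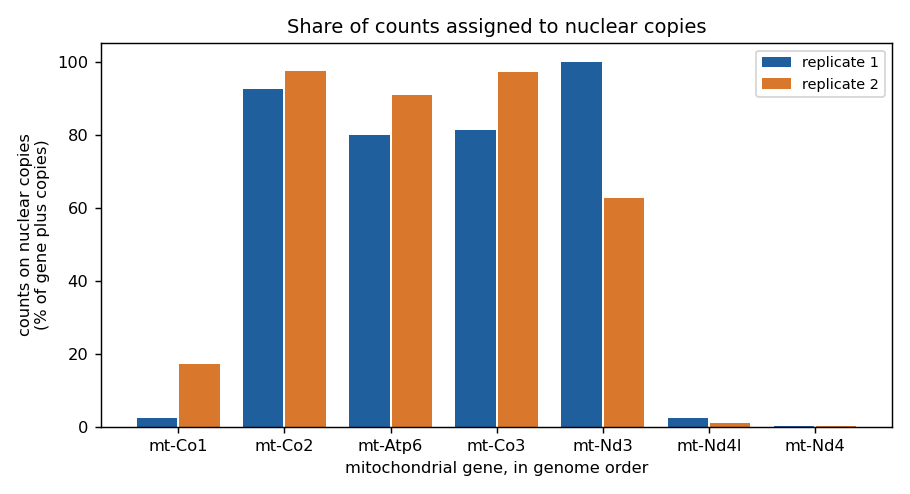
Expected counts assigned to nuclear copies as a percent of the counts of the mitochondrial gene plus its copies, for the 7 genes with a copy, with 1 bar per library. The bars of mt-Co2, mt-Atp6, mt-Co3 and mt-Nd3 lie between 62.7% and 100%, those of mt-Co1 at 2.41% and 17.2%, and those of mt-Nd4l and mt-Nd4 at 2.39% or less.

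The tables also carry the authors' posterior mean of TPM with a credibility interval, and the same genes stood out there. In each library, 4 of the 15 protein-coding and rRNA genes had an interval wider than their posterior mean. For mt-Atp6 the posterior mean was 6748 TPM with bounds of 2537 and 11769 TPM in replicate 1, and 5164 TPM with bounds of 1405 and 10187 TPM in replicate 2. That of mt-Co2 was 677 TPM (bounds 177 and 1615) and 1690 TPM (bounds 481 and 3647). For mt-Co3 it was 316 TPM (bounds 36.7 and 697) and 1171 TPM (bounds 154 and 2634). mt-Nd3, listed at 0 TPM in replicate 1, had a posterior mean of 19.3 TPM there and 551 TPM in replicate 2. The deposited TPM lay below the lower bound for mt-Co2 in both libraries and for mt-Atp6 and mt-Co3 in replicate 2. It did so for mt-Nd3 in replicate 1 only because 0 lies below any positive bound, there 0.00147 TPM. Over the 15 genes it lay outside the interval for 12 in replicate 1 and 14 in replicate 2, also where the interval was narrow. In replicate 1 mt-Nd1 had 49370 counts by both estimates, yet 2292 TPM deposited and a posterior mean of 2201.5 TPM. For that gene the estimates differed in TPM scale and not in count, so lying outside the interval need not mark a disputed count. mt-Atp8, deposited at 14043 TPM in replicate 1, had bounds of 13374 and 13598 TPM there.

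Other features of the gene sequences bear on how reads can be placed. Neighbouring genes overlap. The last bases of mt-Atp8 (shown for chrM:7910-7969) are the first bases of mt-Atp6 (chrM:7927-7986), a shared stretch of 43 nt in capitals, and mt-Nd4l (chrM:10144-10173) and mt-Nd4 (chrM:10167-10196) share 7 nt in the same way.
mt-Atp8, end: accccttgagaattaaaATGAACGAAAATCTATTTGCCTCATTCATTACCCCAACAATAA
mt-Atp6, start: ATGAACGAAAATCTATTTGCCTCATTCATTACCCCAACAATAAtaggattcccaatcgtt
mt-Nd4l, end: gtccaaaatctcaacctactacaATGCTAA
mt-Nd4, start: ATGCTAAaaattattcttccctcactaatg

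Each of these same-strand pairs is known to be carried on 1 shared mRNA. mt-Atp6 and mt-Co3 share 1 nt. mt-Nd5 and mt-Nd6 overlap by 14 nt on opposite strands, and whether strand was used in counting is not stated. As annotated, 3 of the 13 reading frames end in a lone T with no full stop codon, a stop that a poly(A) tail completes, while 8 end in TAA and 2 in TAG. The ends of mt-Co3 (chrM:9361-9390), mt-Nd4 (chrM:11515-11544) and mt-Cytb (chrM:15259-15288) show the lone T in capitals, beside the complete TAG of mt-Nd2 (chrM:4922-4951). The start codon was ATG in 9 of the 13 frames, and ATA, ATC, ATT and GTG in 1 each.
mt-Co3, end: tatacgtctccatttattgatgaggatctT
mt-Nd4, end: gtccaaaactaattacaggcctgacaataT
mt-Cytb, end: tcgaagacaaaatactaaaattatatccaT
mt-Nd2, end: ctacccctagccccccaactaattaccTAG

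The mitochondrial genes together had 589154 and 1279710 expected counts in replicates 1 and 2. This was 1.86% and 2.25% of all counts on annotated genes, 2.05% ± 0.27 (SD, n = 2). Protein-coding genes made up nearly all of it, at 1.84% and 2.16% of all counts, against 0.02% and 0.08% for the rRNAs and 1448 and 2840 counts for all 22 tRNAs. With the nuclear copies added, the share was 2.52% and 3.37%, 2.94% ± 0.60 (SD, n = 2). Of the 37 genes, 34 reached 1 TPM in each library, where 24.2% of all annotated genes did (10469 of 43346). The 34 were 12 mRNAs, both rRNAs and 20 tRNAs, and for a tRNA 1 read is enough: mt-Tv passed in replicate 2 at 1.47 TPM and mt-Tp at 1.70 TPM on 1 count each. The 20 are thus the tRNAs with a read in both libraries, and nothing is read from the contrast with all genes for them. Per full length in place of effective length, 27 of the 37 passed. The 3 below it in a library were mt-Nd3, which passed with its copy added, mt-Tf and mt-Ts2. Of the 13 mRNAs, 9 were among the 100 protein-coding genes of highest TPM in each library.

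With the copies added, the complex V genes had the highest mean levels, while as deposited mt-Atp6 ranked 5 in replicate 1 and 9 in replicate 2 among the 15 mRNAs and rRNAs. mt-Atp8, a small subunit of the ATP synthase membrane part (chrM:7766-7969), had 14043 and 12748 TPM, 13395 ± 916 TPM. It was the highest protein-coding gene by deposited TPM among the 13. mt-Atp6, the subunit that forms the proton channel (chrM:7927-8607), was at 2743 and 1237 TPM alone and at 13624 and 13418 TPM with its copy, 13521 ± 146 TPM. As deposited, mt-Atp8 exceeded its overlapping partner by 2.86 ± 0.71 on the log2 scale (SD, n = 2). With the copy added the difference was -0.015 ± 0.08, smaller than its SD, so the excess held for the table as deposited and not for the joint counts.

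Complex III has 1 mitochondrial gene, mt-Cytb, which encodes cytochrome b (chrM:14145-15288) and has no nuclear copy by the rule used here. Its levels were 3624 and 4334 TPM, 3979 ± 502 TPM, and it ranked next after mt-Nd2 among the genes free of copies. It exceeded mt-Nd5 by 2.13 ± 0.18 on the log2 scale (SD, n = 2), with 2.01 in replicate 1 and 2.26 in replicate 2.

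Of the 7 complex I genes, mt-Nd2 was the highest (chrM:3914-4951), at 5570 and 6068 TPM, 5819 ± 352 TPM. Gm13339, which shares some of its sequence, had 36284 and 41.6 counts beside 130483 and 270739 for mt-Nd2. mt-Nd1 (chrM:2751-3707), also a subunit of the membrane arm, had 2292 and 4300 TPM, 3296 ± 1419 TPM. The mean difference of mt-Nd1 from mt-Nd2 was -0.89 ± 0.55 on the log2 scale (SD, n = 2), lower in both libraries and by more than its SD. mt-Nd4l (chrM:9877-10173) was at 1489 and 2548 TPM, and its overlapping neighbour mt-Nd4 (chrM:10167-11544) at 1459 and 2429 TPM. This pair lay within 0.05 ± 0.03 of each other on the log2 scale and moved together between the libraries. mt-Nd5 (chrM:11742-13565), the longest of the 13, had 901 and 906 TPM, 903 ± 3.34 TPM, the smallest SD of the 13. mt-Nd3 (chrM:9459-9806) was listed at 0 TPM in replicate 1, against 492 TPM in replicate 2, and had 288 and 1321 TPM with its copy.

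mt-Nd6 (chrM:13552-14070) is the only protein-coding gene on the minus strand, the strand that carries few genes. Replicate 1 had 2787 TPM and replicate 2 had 1362 TPM, 2075 ± 1008 TPM. It was above its opposite-strand neighbour mt-Nd5 in both, by 1.63 and 0.59 on the log2 scale, 1.11 ± 0.74 (SD, n = 2). A gene of the other strand thus stood at a level within the range of the plus-strand mRNAs in this table. Whether strand was used in counting is not stated, so reads from the opposite strand may be among its counts.

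The complex IV genes depended most on the copies. mt-Co1 (chrM:5328-6872), the catalytic core subunit of cytochrome c oxidase, was at 2334 and 2385 TPM alone and 2392 and 2882 TPM with its copies. mt-Co2 (chrM:7013-7696), which receives electrons from cytochrome c, was at 148 and 123 TPM alone and at 1961 and 4669 TPM with its copies. mt-Co3 (chrM:8607-9390), the other core subunit, had 147 and 104 TPM alone and 790 and 3645 TPM with its copy. As deposited, mt-Co1 exceeded mt-Co2 by 4.12 ± 0.21 and mt-Co3 by 4.24 ± 0.38 on the log2 scale (SD, n = 2). With the copies these became -0.21 ± 0.69 and 0.63 ± 1.37, each smaller than its SD and of opposite sign in the libraries. The order of the 3 genes thus differed between the table as deposited and the joint counts.

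**Figure D2:**
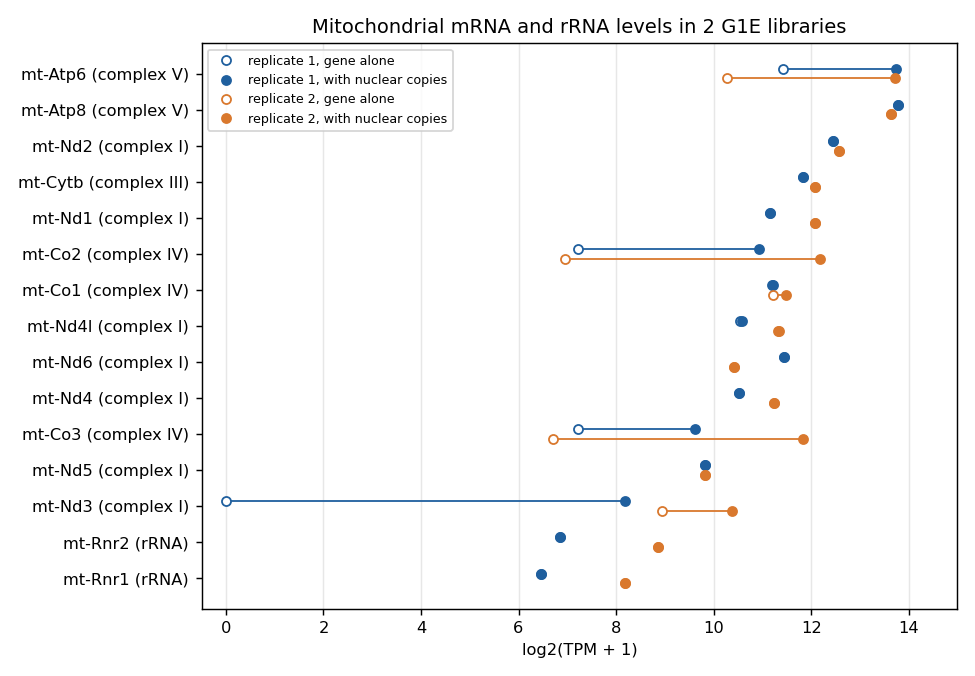
Level of the 13 mRNAs and 2 rRNAs as log2(TPM + 1), from the highest to the lowest mean with nuclear copies added; open points are the gene alone, filled points the gene with its copies, and blue and orange mark replicates 1 and 2. mt-Atp6, mt-Co2, mt-Co3 and mt-Nd3 have long lines between open and filled points, while the 2 rRNAs lie at the bottom.

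The mean order with copies added ran from mt-Atp6, mt-Atp8, mt-Nd2, mt-Cytb, mt-Nd1, mt-Co2, mt-Co1, mt-Nd4l, mt-Nd6, mt-Nd4, mt-Co3, mt-Nd5 and mt-Nd3 to mt-Rnr2 and mt-Rnr1. Only 5 of the 14 neighbouring differences were larger than their SD: mt-Atp8 over mt-Nd2, mt-Nd2 over mt-Cytb, mt-Co1 over mt-Nd4l, mt-Nd3 over mt-Rnr2 and mt-Rnr2 over mt-Rnr1. The other 9 neighbours did not differ beyond their spread. The highest mRNA was 48.8 times the lowest in replicate 1 and 14.8 times in replicate 2. Across the 13 mRNAs the libraries correlated with Spearman's rho of 0.75 with copies and 0.82 as deposited, over genes that share a precursor and are not independent. Against the start position on the genome, rho of the level was -0.41 and -0.50 over the 12 plus-strand mRNAs, and against gene length it was -0.17 and -0.23 over 13, which are weak relations on few genes.

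The rRNAs were low. mt-Rnr1, the rRNA of the small ribosomal subunit (chrM:70-1024), had 87.4 and 291 TPM. mt-Rnr2, that of the large subunit (chrM:1094-2675), was at 114 and 462 TPM. They lay next to each other in level in both libraries, with mt-Rnr2 higher by 0.53 ± 0.20 on the log2 scale (SD, n = 2). Their summed TPM was 0.39% and 1.24% of the sum over the 13 mRNAs with copies. The libraries were made from poly(A)-selected RNA, so these values say nothing of the rRNA amount in the cells.

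The tRNA values too come from poly(A)-selected RNA, so they say nothing of the tRNA amounts in the cells. Among the tRNAs, mt-Te stood apart in counts. It encodes the tRNA for glutamate and lies on the minus strand at chrM:14071-14139, directly next to mt-Nd6 on that strand. It had 1106 counts in replicate 1 and 2466 in replicate 2, 76.4% and 86.8% of all tRNA counts. The next tRNA was mt-Ts1, a serine tRNA, with 82 counts in replicate 1, and mt-Tl1, a leucine tRNA, with 112 counts in replicate 2. The tRNAs are 59 to 75 nt long, little longer than the 55-nt reads of replicate 2, so few positions are left in that library where a read can start. These sequences show that limit: the capitals are the start positions open to a 55-nt read, 15 in mt-Te, 21 in mt-Tl1 (chrM:2676-2750, plus strand) and 5 in mt-Ts2, another serine tRNA (chrM:11613-11671, plus strand).
mt-Te: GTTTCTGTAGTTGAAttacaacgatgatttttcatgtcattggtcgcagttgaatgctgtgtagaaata
mt-Tl1: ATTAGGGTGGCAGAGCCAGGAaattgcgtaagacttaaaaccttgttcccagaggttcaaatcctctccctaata
mt-Ts2: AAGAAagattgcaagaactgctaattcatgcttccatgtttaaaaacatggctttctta

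The effective lengths of the tRNAs, which count those positions, ran from 24 to 40 in replicate 1 and from 5 to 21 in replicate 2, so TPM weighs 1 read very differently in the libraries. By TPM, mt-Te was at 1393 and 3626, which was 0.50 and 2.66 times mt-Nd6. In counts the other 21 tRNAs were close to the limit of detection. Their values ran from 3 to 82 in replicate 1 and from 0 to 112 in replicate 2, and over all 22 the median was 13.5 and 7.5. Fewer than 10 counts were found for 8 of 22 in replicate 1 and 12 of 22 in replicate 2. mt-Tf (phenylalanine) had 3 and 0 counts and mt-Ts2 had 5 and 0. Each count of 0 allows up to 3 counts, which is 4.73 TPM for mt-Tf and 13.2 TPM for mt-Ts2, and this limit covers counting error only.

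By strand, the 8 minus-strand tRNAs had a median of 20.5 and 28.5 counts and the 14 plus-strand tRNAs 8 and 3. Those on the minus strand besides mt-Te are mt-Tq, mt-Ta, mt-Tn, mt-Tc, mt-Ty, mt-Ts1 and mt-Tp, for glutamine, alanine, asparagine, cysteine, tyrosine, serine and proline. The first 4 of them had 7 to 23 counts in replicate 1 and 10 to 34 in replicate 2. mt-Ty had 20 and 83 counts, mt-Ts1 82 and 26, and mt-Tp 21 and 1, so the minus-strand tRNAs did not differ between the libraries in 1 direction. The plus strand holds mt-Tf, mt-Tv, mt-Tl1, mt-Ti, mt-Tm, mt-Tw, mt-Td, mt-Tk, mt-Tg, mt-Tr, mt-Th, mt-Ts2, mt-Tl2 and mt-Tt. They carry phenylalanine, valine, leucine, isoleucine, methionine, tryptophan, aspartate, lysine, glycine, arginine, histidine, serine, leucine and threonine. mt-Tl1 led them with 38 and 112 counts, and the others had 3 to 22 counts in replicate 1 and 0 to 15 in replicate 2. The ranges of the strands overlapped in both libraries, and whether a read was counted by strand is not stated. Across the 22 tRNAs the counts of the libraries correlated with Spearman's rho of 0.69.

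**Figure D3:**
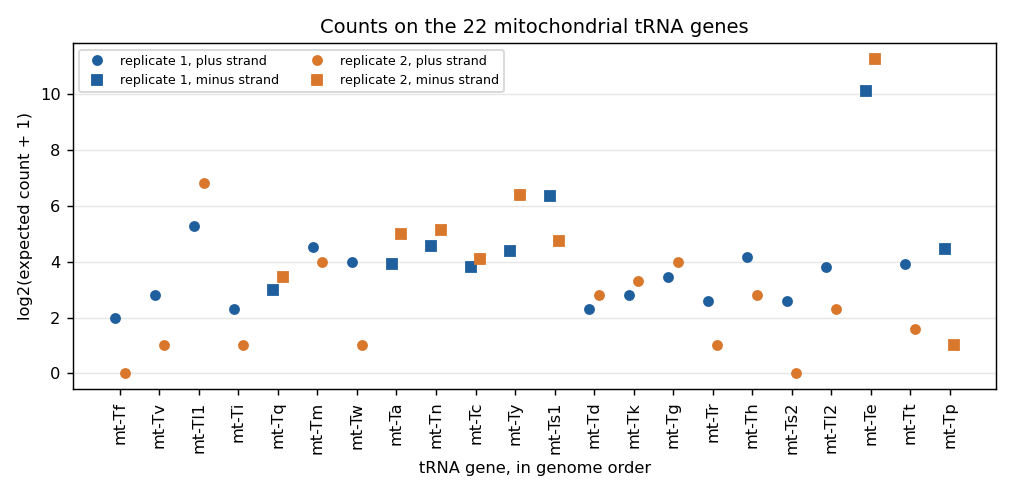
Expected counts on the 22 tRNA genes as log2(count + 1), in genome order, with circles for the plus strand, squares for the minus strand, and blue and orange for replicates 1 and 2. mt-Te, at 1106 and 2466 counts, lies far above the others, which reach at most 82 and 112 counts.

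The libraries were then set against each other on counts scaled by TMM, a scaling that assumes most genes do not differ, with 0.5 added to each scaled count and at least 50 counts in total. With 1 library against 1 there is no p-value. Of the 20 mitochondrial genes that reached 50 counts, 7 were more than 2-fold apart, beside 32.5% of all 12414 genes tested, so a gene of this group was apart about as often as any other. Of these, 6 were higher in replicate 2 (background 22.4%) and 1 was higher in replicate 1 (background 10.2%). Those higher in replicate 2 were mt-Rnr1, mt-Rnr2, mt-Nd1, mt-Nd3, mt-Nd4 and mt-Ty, and the 1 higher in replicate 1 was mt-Ts1. Leaving out mt-Nd3, the rRNAs had the largest log2 ratios as deposited, replicate 2 over replicate 1, of 2.30 for mt-Rnr2 and 2.01 for mt-Rnr1, from 4134 and 1877 counts in replicate 1 to 32036 and 11882 in replicate 2. mt-Nd1 followed at 1.18 (49370 and 176049 counts), and mt-Nd4 at 1.02 lay just past 2-fold, with mt-Nd4l just inside at 0.97. Neither mt-Nd1 nor mt-Nd4 was past 2-fold on total counts, on deposited TPM or with TMM over only the genes past edgeR's expression filter. mt-Ty had 1.38 and mt-Ts1 -2.28, both on few counts. The other tRNAs tested were mt-Tl1 at 0.90, mt-Te at 0.51 and mt-Tn at -0.09. On deposited TPM these were 1.53, 1.38 and 0.69, so that mt-Tl1 and mt-Te were past 2-fold and mt-Tn changed sign.

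For the remaining mRNAs the log2 ratio was 0.54 for mt-Cytb, 0.40 for mt-Nd2, 0.32 for mt-Co1, 0.30 for mt-Nd5, 0.00 for mt-Co2, -0.01 for mt-Atp8, -0.24 for mt-Co3, -0.78 for mt-Nd6 and -0.89 for mt-Atp6. mt-Atp6 was past 2-fold, lower in replicate 2, on total counts, on deposited TPM and with the filtered TMM, and mt-Nd6 on deposited TPM and with the filtered TMM. No ratio is given for mt-Nd3 alone, since its count of 0 in replicate 1 stood beside 2103 counts on its copy. The median over the 13 was 0.32, beside 0.28 over all genes tested. Setting mt-Nd3 to a bound of 3 counts could not move that median, since its ratio stays the highest of the 13. With the copies added, the ratio was 2.47 for mt-Co3, 2.41 for mt-Nd3, 1.51 for mt-Co2, 0.56 for mt-Co1, 0.24 for mt-Atp6 and 0.95 for mt-Nd4l, so that mt-Co3 and mt-Nd3 then exceeded both rRNAs. The median was then 0.56, and 9 of 20 genes were more than 2-fold apart, beside 32.5% of all genes in either direction. Of the 9, 8 were higher in replicate 2, a direction in which 22.4% of all genes were past 2-fold before copies were added. The scaling moved the median of all genes from 0.28 to 0.02 under that TMM setting (chosen after seeing the data), and the 2-fold split of the mitochondrial genes was then 4 higher in replicate 2 and 3 higher in replicate 1, beside 29.6% of all genes in either direction. It was 4 and 2 on total counts (29.8% of all genes) and 6 and 3 on deposited TPM (30.7%). Any higher value in replicate 2 was found for 70% of the 20 genes and for 63.2% of all genes, and for 65% and 54.0% on total counts. The shares were 65% and 51.2% with the filtered TMM, 70% and 46.4% on deposited TPM, and 80% and 63.2% with copies. The gap thus depended on the setting, and these shares over 20 genes are not read as a result about them.

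**Figure D4:**
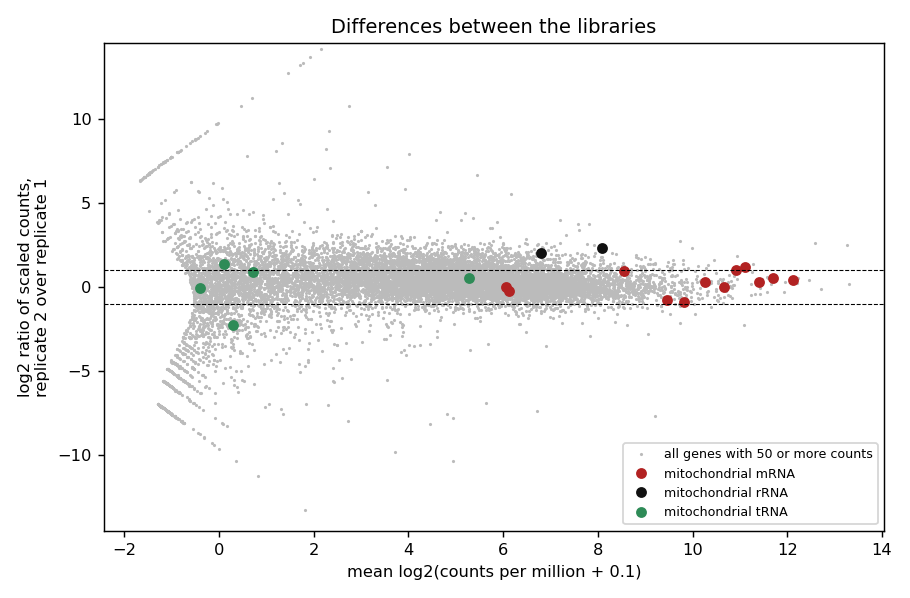
Log2 ratio of TMM-scaled counts, replicate 2 over replicate 1, against the mean log2(CPM + 0.1), where CPM is the count scaled to the library total, for all 12414 genes with at least 50 counts (grey) and for the mitochondrial mRNAs, rRNAs and tRNAs among them; dashed lines mark 2-fold. mt-Nd3, with 0 counts in replicate 1, has no coloured point. The rRNAs lie above the upper line at 2.01 and 2.30, and mt-Ts1 lies below the lower line at -2.28.

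RNAs that mostly lack a poly(A) tail were looked at beside the rRNAs. Rn7sk, the RNA that holds back a transcription elongation factor, was at 208 and 440 TPM. Rpph1, the RNA of ribonuclease P, had 25.6 and 68.0 TPM, and Rmrp, the RNA of a related enzyme, 10.9 and 78.0 TPM. Rn7s1 and Rn7s2, near-identical genes of the signal recognition particle RNA between which reads could be split, were at 125 and 424 TPM each. All 5 of 5 were more than 2-fold higher in replicate 2 on scaled counts, beside 22.4% of all genes tested. Their median log2 ratio was 1.96, that of the 2 mitochondrial rRNAs 2.16 and that of all genes tested 0.28. The median of the 5 is the value of Rn7s1. Rn7s2 had almost the same counts, so these 2 genes are not separate values. The part of tail selection, of read length and of depth in these ratios was not tested.

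The mitochondrial mRNAs were next set against a list of 39 nuclear genes for the same complexes, called partners here. The list is partial: for complex I it holds 7 core subunit genes and none of the accessory ones. All 39 partners reached 1 TPM in each library, and their median was 240 and 273 TPM. The median of the 13 mRNAs with copies was above that of the partners by 3.50 ± 0.34 on the log2 scale (SD, n = 2), and by 3.19 ± 0.09 as deposited. The RNA was poly(A)-selected, and the part of tail selection in the differences between mitochondrial and nuclear mRNAs was not tested. In complex I the partners had medians of 132 and 142 TPM, and the mitochondrial median with copies was 11.6 and 17.1 times higher, with 7 of 7 genes above every listed partner in both libraries. In complex III mt-Cytb was 19.3 and 15.6 times the partners' median of 187 and 278 TPM. In complex V the ratio with copies was 44.3 and 45.9, over partners at 313 and 285 TPM. On the log2 scale this was 5.49 ± 0.04, against 4.68 ± 0.09 as deposited (SD, n = 2). As deposited, 6 of 7 complex I genes were above every listed partner in replicate 1 and 7 in replicate 2. For complex V these were 2 of 2 in replicate 1 and 1 of 2 in replicate 2.

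Complex IV differed in that its direction depended on the copies. Its nuclear partners were the most abundant of these groups, with medians of 457 and 621 TPM. With copies the mitochondrial median exceeded theirs 4.29 and 5.87 times, a log2 difference of 2.33 ± 0.32 (SD, n = 2), while as deposited it lay below theirs at -1.98 ± 0.50. Only mt-Co1 was above every partner as deposited in both libraries. With copies mt-Co2 joined it in replicate 1, and all 3 were above in replicate 2.

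Single pairs of genes were compared in the same way. mt-Co1 exceeded Cox4i1, the nuclear subunit that binds to it, by 2.17 ± 0.43 on the log2 scale (SD, n = 2), with Cox4i1 at 420 and 652 TPM. mt-Nd1 exceeded Ndufs1, the large iron-sulfur subunit of complex I, by 4.92 ± 0.54, with Ndufs1 at 98.0 and 108 TPM. mt-Cytb exceeded Cyc1, cytochrome c1 of complex III, by 3.96 ± 0.47, with Cyc1 at 293 and 220 TPM. mt-Atp6 as deposited was level with Atp5b, the catalytic subunit of ATP synthase, at 0.16 ± 0.35, and above it by 3.04 ± 0.44 with the copy. Atp5b was the highest of the partners, at 2061 and 1313 TPM. Cox5b (1165 and 1271 TPM), Cox7b (1052 and 1234 TPM), Atp5a1 (982 and 1268 TPM), Cox6a1 (1079 and 1020 TPM) and Cox8a (1052 and 858 TPM) came next. Of the 12 pairs compared in all, 7 were at least 2-fold apart in the same direction in both libraries as deposited and 5 with copies.

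**Figure D5:**
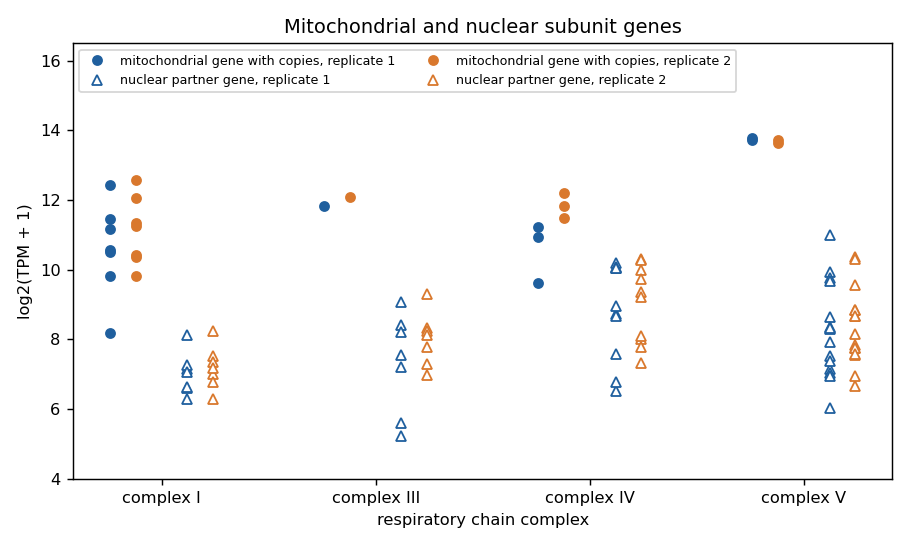
Level as log2(TPM + 1) of the mitochondrial mRNAs with nuclear copies added (filled circles) and of the listed nuclear partner genes of the same complex (open triangles), by complex, with blue and orange for replicates 1 and 2. In complexes I, III and V every circle lies above every triangle of its own library, and in complex IV mt-Co3 in replicate 1, at 790 TPM, lies among the triangles.

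The proteins that copy mitochondrial DNA and that transcribe, process and translate its RNA are encoded in the nucleus. Of 46 that matched the annotation, 45 reached 1 TPM in each library, and the median was 18.2 and 21.9 TPM. The highest were Rexo2, an exonuclease that clears short RNA fragments, at 179 and 223 TPM, Fastk at 234 and 121 TPM and Tbrg4 at 171 and 162 TPM, both of the FASTK family of mitochondrial RNA-binding proteins. Tufm, the mitochondrial elongation factor Tu, was at 170 and 124 TPM. Hsd17b10, a subunit of mitochondrial ribonuclease P, had 190 and 87.2 TPM, and Polg, the mitochondrial DNA polymerase, 128 and 112 TPM. Mterf1b, of the mitochondrial transcription termination factor family, was the 1 gene under 1 TPM in a library, at 0.27 and 1.48 TPM. On scaled counts 15 of the 46 were more than 2-fold higher in replicate 2, beside a background of 22.4%. In replicate 1, 0 of the 46 were more than 2-fold higher, beside a background of 10.2%. Any higher value in replicate 2 was found for 36 of the 46, and for 63.2% of all genes tested. The median log2 ratio of the 46 was 0.69, beside 0.28 over all genes tested.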

How the data were processed

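The samples are 2 libraries of poly(A)-selected RNA of G1E cells, 1 group. Expected counts, estimated reads per gene, were deposited without normalisation. TPM values were deposited per effective length, per the file headers, on the same total in each library. The deposited signal columns used are the posterior mean and bounds of TPM, whose level is not stated, and effective lengths, which equal length minus 35 nt in replicate 1 and minus 54 nt in replicate 2. The assembly is mm10, per the labels. Aligner, quantifier, library strand and how reads matching several genes were divided are each not given in the sources used here.

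Of 43346 annotated genes, 42462 matched GENCODE M21 of GRCm38 on identifiers without version and 884 did not. Sequences came from its transcripts. Entries naming no gene (0.0363% and 0.00942% of counts) were left out. Nuclear copies are genes off chrM with at least 20% of a gene's 36-nt stretches on the same transcript strand. Genes on chromosome 18 were left out of the copies and of all sums over them. The joint TPM is the joint count over the mitochondrial gene's effective length on the library's TPM scale. TMM factors, 1.07 and 0.934, came from edgeR 4.0.16 in R 4.3.3 over all annotated genes, on counts rounded to whole numbers, and DESeq2 1.42.0 gave other size factors. Pair differences use log2(TPM + 1), which understates ratios of low genes. On simulated counts, in which 12872 genes were tested, only a small set of well-counted genes was changed, 4-fold in either direction. The steps recovered 100% of these, and 99.3% of unchanged genes stayed within 2-fold. Both simulated libraries came from 1 shared profile, whereas 32.5% of genes were more than 2-fold apart in the real pair. The simulation thus checks the steps and says nothing of the spread in these data.

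The text names all 37 genes, their copies, 12 pairs, and of lists of expression machinery, nuclear partners and RNAs without poly(A) tails up to 6 of highest mean TPM and up to 2 under 1 TPM. Prorp of the machinery list found no match. The members and lists were chosen with earlier results of these data known. Tables, alignments and plots were made with Biopython 1.88, matplotlib 3.10.9, pandas 2.3.3, scipy 1.17.1 and numpy 2.4.6 under Python 3.11.15.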

Additional observations from a re-analysis of the deposited data

How the results depend on the processing

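The share of counts, 2.05%, became 2.94% with nuclear copies, 3.00% with copies at 10% of 36-nt stretches (chosen after seeing the data) and 4.18% as a share of TPM; it was 1.86% to 2.25% in single libraries. The added gene at 10% is Gm13339 on chromosome 2, named after its values were seen, with 36284 and 41.6 counts, 27.8% and 0.02% of those of mt-Nd2. Without a minimum count, 18 of all 37 genes were more than 2-fold apart, in place of 7 of the 20 that reach the minimum. Under the other settings 6 to 9 of the 20 were. The genes added without the minimum are all tRNAs with too few counts to reach it. No share of all genes without a minimum is given, so nothing is read from the rise to 18. The difference of mt-Atp8 from mt-Atp6 turned to -0.015 and that of mt-Co1 from mt-Co2 to -0.21 with copies, at 20% and at 10% alike. By construction these settings add the counts of the copies. Pairs at least 2-fold apart were 5 to 9 of 12, and genes at 1 TPM 24 to 37, the lowest at 10 TPM. No paired analysis was possible because there is only 1 group. With 2 libraries of different depth and read length, spread has 1 degree of freedom, tRNAs rest on few counts, and reads of a gene and its exact copy cannot be told apart.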

Other observations

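Gm20594 on chromosome 6, annotated as protein-coding, shares 32 of the 1547 36-nt stretches of mt-Rnr2, and it had 2.09 counts in replicate 1 and 1.22 in replicate 2. It is named after its values were seen. With chromosome 18 left out, 16 genes off chrM with values in the tables share at least 1 such stretch with a mitochondrial gene. Together they held 243656 and 638430 counts. The 6 mRNAs without a nuclear copy (mt-Nd1, mt-Nd2, mt-Atp8, mt-Nd5, mt-Nd6 and mt-Cytb) had 1.26% and 1.49% of all counts, 1.37% ± 0.16 (SD, n = 2), and a median log2 ratio between the libraries of 0.35.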
